A study of Rattus norvegicus with 125 samples.

Results

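The gene expression of lung from rats that breathed Air was set against that of brain, heart and kidney, to describe which genes this organ holds above the others. The arrays were 8 of lung, 4 taken 24 h and 4 taken 1 week after the Air session, against 4 of brain, 2 of heart and 4 of kidney, all 24 h after Air: 18 of the 125 arrays of the series. All rats were adult male Sprague-Dawley rats, an outbred laboratory stock, with no genetic change named in the labels. Air sessions held 0 ppm for 40 min in the whole-body chamber in which other rats received PH3 (phosphine, a fumigant gas) at 387 ppm for 40 min. The 18 arrays came from 10 rats, and rats 83, 84 and 145 gave lung and at least 1 other organ. Each array measured 31139 probe sets as log2 RMA signal (robust multiarray average, a summary of probe brightness). The 19068 probe sets that the platform annotation ties to exactly 1 gene symbol, for 13438 genes, were used. A probe set was called lung-enriched where its lung mean lay above the mean of every other organ by at least 2 on the log2 scale, which is 4-fold in signal, at an adjusted p under 0.05. The distance from the lung mean to the highest of the other 3 organ means is called the margin. By this rule 374 of 19068 probe sets were lung-enriched, for 334 genes.

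The gas-exchange surface of the lung is built of flat alveolar type 1 cells and cuboidal type 2 cells, which secrete surfactant, the lipid and protein film that lowers surface tension. Behind them lies a dense bed of capillaries. The conducting airways are lined by ciliated cells, which move mucus, and by club cells, which secrete defence proteins and carry cytochrome P450 enzymes. The transcription factor Nkx2-1 is known to drive surfactant and club cell genes in lung epithelium.

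Because the members with the largest margins include genes known to be driven by Nkx2-1, the 250 bases before the start of 4 of them are shown, from RefSeq, build GRCr8, 5′ to 3′ on the strand of the gene. Capitals mark the letters CTCAAG, the core that NKX2-1 is known to bind, or their reverse complement CTTGAG. Sftpb and Sftpa1 encode surfactant proteins, Scgb1a1 the main club cell secretion, and Nkx2-1 the factor itself.
Sftpb, chr4:105917338-105917587, plus strand: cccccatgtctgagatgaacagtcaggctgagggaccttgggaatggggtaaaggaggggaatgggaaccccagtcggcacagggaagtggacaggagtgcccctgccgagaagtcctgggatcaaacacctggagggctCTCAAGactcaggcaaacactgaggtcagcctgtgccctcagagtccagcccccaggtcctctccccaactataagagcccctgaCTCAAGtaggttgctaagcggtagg
Sftpa1, chr16:17042014-17042263, plus strand: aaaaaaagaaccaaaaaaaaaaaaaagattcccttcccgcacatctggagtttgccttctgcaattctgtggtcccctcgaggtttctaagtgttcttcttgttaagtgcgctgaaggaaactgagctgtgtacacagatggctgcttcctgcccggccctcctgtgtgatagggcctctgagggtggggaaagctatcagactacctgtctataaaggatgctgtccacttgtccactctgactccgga
Scgb1a1, chr1:215409687-215409936, minus strand: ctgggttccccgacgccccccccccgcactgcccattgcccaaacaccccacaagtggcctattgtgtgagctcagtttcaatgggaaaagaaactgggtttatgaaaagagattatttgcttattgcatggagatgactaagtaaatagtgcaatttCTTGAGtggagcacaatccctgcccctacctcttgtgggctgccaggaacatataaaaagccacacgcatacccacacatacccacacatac
Nkx2-1, chr6:79734868-79735117, minus strand: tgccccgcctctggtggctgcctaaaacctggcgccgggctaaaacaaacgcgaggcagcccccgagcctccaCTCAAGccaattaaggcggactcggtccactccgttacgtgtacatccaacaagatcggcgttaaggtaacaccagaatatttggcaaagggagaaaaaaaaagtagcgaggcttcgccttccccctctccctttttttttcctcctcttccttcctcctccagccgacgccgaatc
The Sftpb window held the core 2 times, and those of Scgb1a1 and Nkx2-1 held it 1 time each, the former on the opposite strand. The Sftpa1 window did not hold these letters. Of the 334 lung-enriched genes, 244 matched an entry, under 80% of them, so the shares below describe the matched genes and are void as a statement on the whole set. CTCAAG on either strand stood in 39 of the 244 windows (16%), against 12.1% of the 11058 measured genes with an entry and 13.3% of all 27457 promoters of the table. TATAAA on either strand, the letters of the TATA box, stood in 16.4% of the 244, against 8.05% of measured genes and 13.1% of all. TGTTTAC, a core bound by forkhead factors, stood in 3.28%, against 2.13% and 3.25%. GTTGCC, bound by RFX factors of ciliated cells, stood in 13.5%, against 10.1% and 9.90%, and in 4 of the 8 ciliated cell genes with an entry. No motif contains another.

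The labels of the organs were borne out by their defining genes. All 7 neural genes were highest in brain, all 7 genes of ventricular heart muscle in heart and all 8 kidney tubule genes in kidney. The surfactant list averaged 11.6 to 11.9 over the 8 lung arrays, and at most 6.998 on any array of the other organs. No read depth exists for arrays, so their number limits the precision, most of all for the 2 heart arrays. The 25th percentile of signal lay between 3.79 and 3.91 on the 18 arrays, and a value near it does not show that a gene was silent. These are bulk samples, in which more cells of a type and more RNA per cell cannot be told apart.

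Lung-enriched probe sets made up 1.96% of those tested, or 329 of 13438 genes (2.45%) when a gene was read from its brightest probe set. Their median margin was 2.74, beside -0.37 over all probe sets, a difference the rule itself sets. The margin reached 3 in 151 probe sets, 4 in 69 and 6 in 27. On 372 of the 374, every lung array lay above every array of the other organs, with Fgg and Chodl the exceptions. The share over all probe sets was 8.99%, but the rule was applied to these same arrays, so nothing is read from the difference. The next highest organ was heart for 163, kidney for 145 and brain for 66. In 44, all 3 other organs lay below the 25th percentile. Just inside the threshold stood Ctsz, Cst7 and Lrrc36, with margins of 2.001, 2.005 and 2.007, and just outside it Ceacam1, Wdr38 and Cthrc1, with 1.997, 1.996 and 1.991. Of the 72 lung-enriched genes with several probe sets, 28 had every probe set called.

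**Figure D1:**
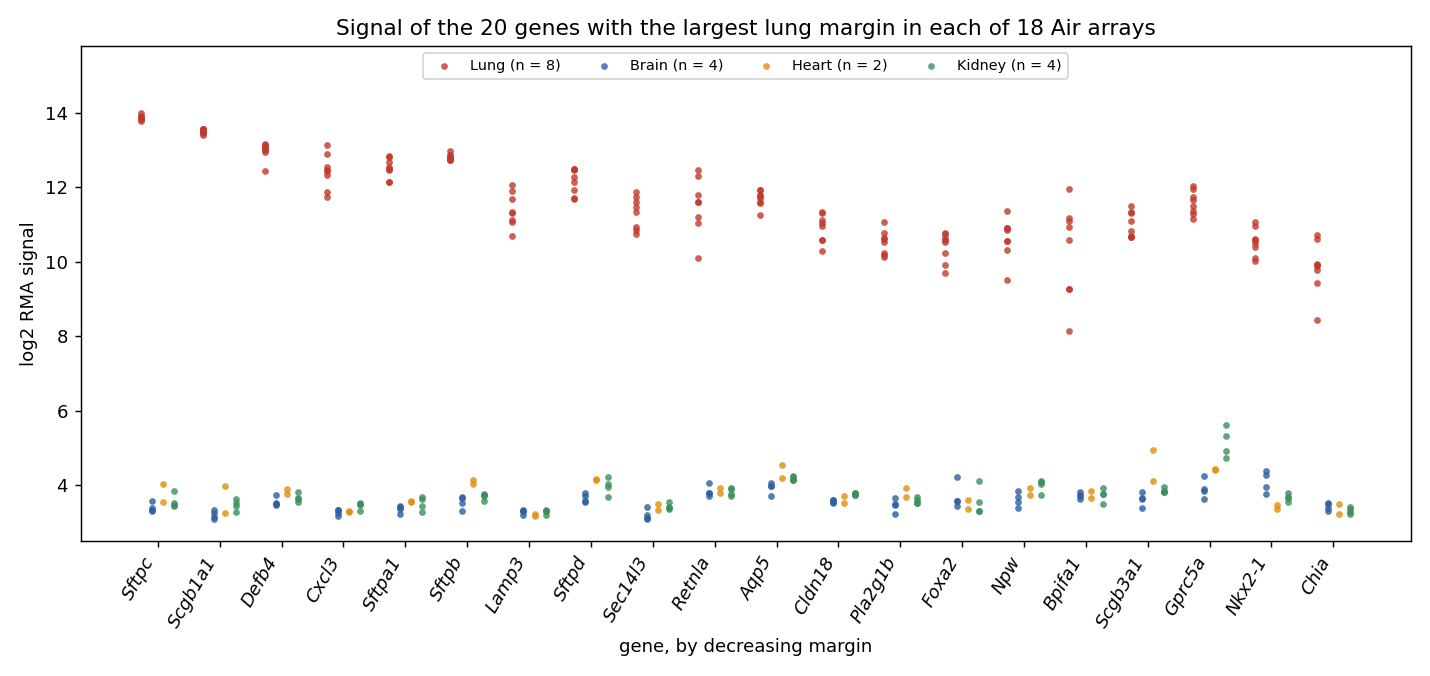
Log2 RMA signal (vertical axis) of the 20 genes with the largest margin, ordered from left to right by decreasing margin, with 1 point per array for lung (n = 8), brain (n = 4), heart (n = 2) and kidney (n = 4). Every lung point lies above every point of the other organs, and Bpifa1 spreads most among the lungs, from 8.14 to 11.97.

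Genes of surfactant were among those with the largest margins. Sftpc, the hydrophobic protein made by type 2 cells, ran from 13.78 to 13.99 over the 8 lung arrays with a median of 13.89, against 3.58, 3.39, 3.33 and 3.32 in brain, 3.55 and 4.04 in heart, and 3.44, 3.54, 3.48 and 3.84 in kidney. No lung array came near the others. Its margin of 10.08 ± 0.15 (SE), 1083-fold in signal (adjusted p = 1.49e-19, limma with Benjamini-Hochberg adjustment). The other organs lay near the 25th percentile, so this ratio of signals is not a ratio of RNA, and the order of the largest margins is not read as an order of genes. Sftpb, the other hydrophobic protein, ran from 12.74 to 12.97 in lung and did not pass 4.14 elsewhere (margin 8.72 ± 0.14). The collectins Sftpa1 and Sftpd, secreted proteins that bind microbes, had margins of 8.95 ± 0.19 and 7.996 ± 0.22. Lamp3, a membrane protein of the lamellar bodies that store surfactant, had 8.11 ± 0.20. A second Sftpa1 probe set gave 8.40 and a second Sftpb probe set 7.25.

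A gene is counted as above all 3 organs where it passed the test at any margin, as 12.4% of all genes did. Of 12 surfactant genes listed and measured, 7 were lung-enriched, 10 stood above all 3 organs and 2 were highest in kidney, with a list median of 3.77, beside -0.42 over all genes. Abca3, the lipid pump of lamellar bodies, was above all 3 organs by 1.66 ± 0.09, with kidney next. Napsa, a protease that processes pro-surfactant proteins, ran from 12.10 to 12.45 in lung and read 12.49, 12.69, 12.50 and 12.78 in kidney. Its groups did not overlap, with kidney the higher (margin -0.36 ± 0.12, adjusted p = 0.0329, limma). Ctsh, a second such protease, had a margin of -0.35 ± 0.08, also against kidney. The phosphate carrier Slc34a2 and the lipid-remodelling enzyme Lpcat1 were lung-enriched, with margins of 4.59 and 2.96. Among 11 measured genes of a further type 2 cell list, 4 were lung-enriched: the chitinase Chia (6.41), the calcium binder S100g (4.93), Sfta2 (4.38) and Dram1 (3.23). Lrp2, an endocytic receptor of kidney tubule, and Mlc1, a brain membrane protein, belonged to that list, with kidney and brain the highest organs and margins of -4.67 and -6.06.

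Type 1 cells line most of the alveolar surface. The water channel Aqp5 ran from 11.26 to 11.94 in lung with a median of 11.74, and reached at most 4.54 on any other array, a heart array. Its margin was 7.32 ± 0.17, and that of the tight junction protein Cldn18 was 7.14 ± 0.18. Ager, the receptor for advanced glycation end products and a classic type 1 cell marker, lay between 12.37 and 12.56 in lung, against 6.86 and 6.65 in heart and at most 5.74 in brain and kidney (margin 5.70 ± 0.15). Of 14 measured genes of the list, 8 were lung-enriched and 11 above all 3 organs, with a median margin of 2.66. The receptor Gprc5a had 6.45, the membrane glycoprotein Pdpn 4.27 and the tetraspan protein Emp2 3.41. Caveolin 1 (Cav1), also abundant in endothelium, was above all 3 organs by 1.05. The exceptions were Lmo7, Krt7 and Igfbp2: the keratin Krt7 averaged 10.46 in lung and 10.44 in kidney (margin 0.02 ± 0.16), and the growth factor binder Igfbp2 averaged 8.74 in lung and 10.0 in brain (-1.30 ± 0.24).

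Airway secretory genes reached the same height. Scgb1a1 lay between 13.40 and 13.58 in the 8 lungs and at most at 3.98 elsewhere, a margin of 9.87 ± 0.16. Scgb3a1, a related secretoglobin, had 6.49 ± 0.24 and Bpifa1, an antimicrobial protein of airway fluid, 6.55 ± 0.64. Of 13 measured genes of the club and secretory list, 8 were lung-enriched, 9 above all 3 organs and the median margin was 3.15. Muc5b, a gel-forming mucin, was lung-enriched (3.15 ± 0.15), whereas Muc5ac, the other gel-forming airway mucin, averaged 4.01 in lung and 4.54 in heart, with a margin of -0.53 ± 0.13. Tff2 and Reg3g averaged 3.36 and 3.58 in lung, near the 25th percentile.

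Of 12 measured ciliated cell genes, 3 were lung-enriched and 8 above all 3 organs, with a median of 1.16. Tekt2, a filament protein of the axoneme, ran from 7.76 to 8.75 in lung and was at most 4.48 in other organs (4.15 ± 0.17). The dynein light chain Dynlrb2 had 3.17 ± 0.18 and Tppp3, a tubulin binder, 2.39 ± 0.14. Foxj1, the master regulator of motile cilia, was above all 3 organs by 1.52 ± 0.21, with lung arrays from 5.99 to 7.30. Mlf1 was highest in heart (-3.40 ± 0.29). Of 10 measured basal and neuroendocrine genes, the keratin Krt19 alone was lung-enriched (3.05 ± 0.20). Krt5 and Tp63, which define basal cells, averaged 3.96 and 3.73 in lung.

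**Figure D2:**
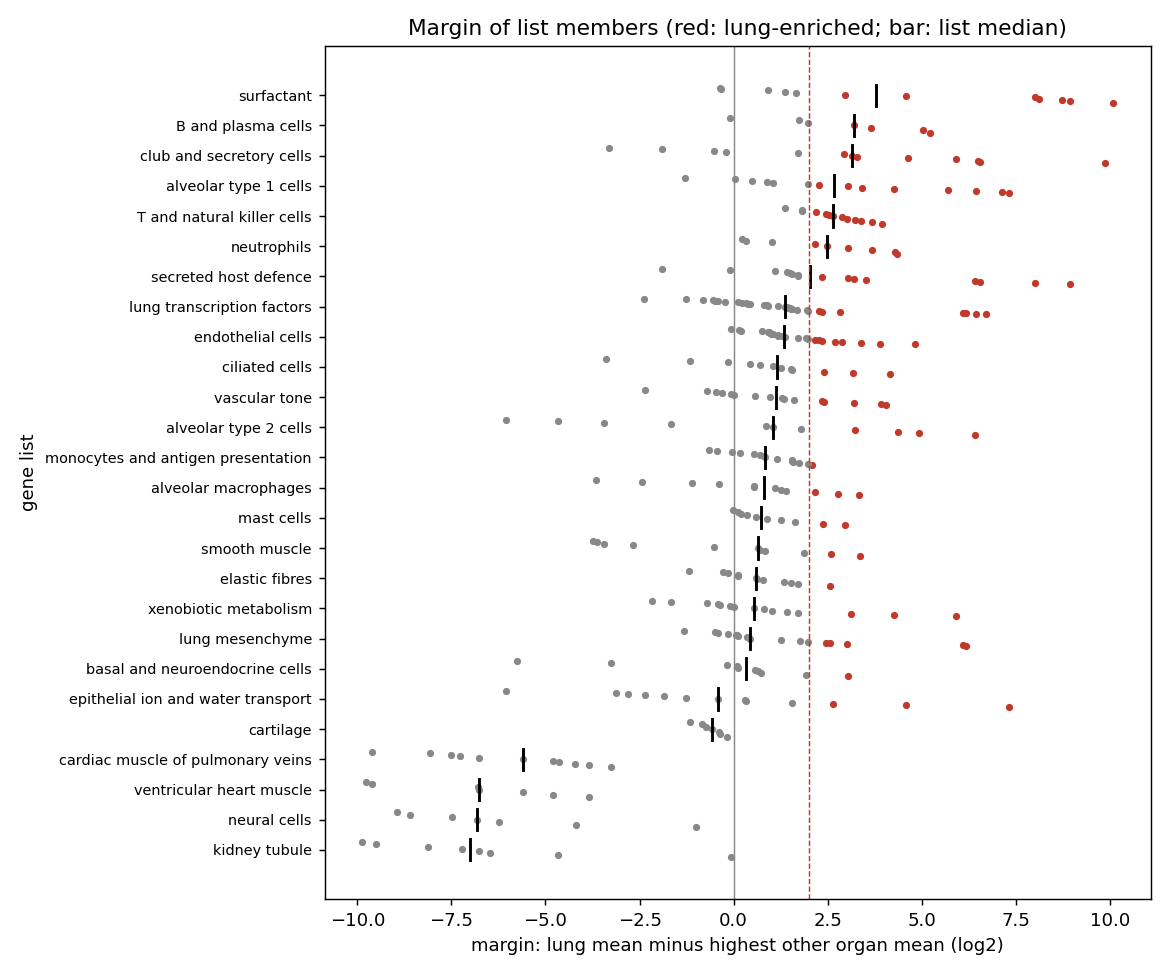
Margin on the log2 scale (horizontal axis) of the measured members of each gene list with at least 7 of them (vertical axis), with lung-enriched members in red, the others in grey, the list median as a black bar, the threshold of 2 dashed and 0 as a thin line. Surfactant has the highest median, 3.77, and lists of heart muscle, neural and kidney tubule genes lie to the left of 0.

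Transcription factors of lung were among the largest differences. Nkx2-1 ran from 10.02 to 11.07 in lung with a median of 10.55, against 4.28, 3.77, 3.95 and 4.39 in brain, 3.38 and 3.47 in heart and 3.66, 3.78, 3.56 and 3.69 in kidney. The groups stood apart by more than 5 (margin 6.43 ± 0.19, adjusted p = 4.08e-14, limma). Foxa2, a forkhead factor of endoderm, had 6.70 ± 0.22. Tbx4 and Foxf1, factors of lung mesenchyme, had 6.17 ± 0.16 and 6.09 ± 0.23; a second Foxf1 probe set gave 2.44. Klf5, Sox17 and Hopx completed the 7 of 33 measured factors that were lung-enriched, with 22 above all 3 organs and a median of 1.36. Foxa1, a relative of Foxa2, averaged 4.38 in lung (0.88 ± 0.11). Tbx5, the neighbour of Tbx4 in the same family, averaged 8.12 in lung and 8.52 in heart (-0.41 ± 0.23), which did not pass the test. Sox2, a factor of airway epithelium and of neural progenitors, was higher in brain (-2.38 ± 0.29).

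Of 24 measured endothelial genes, 8 were lung-enriched and 19 above all 3 organs, with a median margin of 1.33. Tmem100 led with 4.83 ± 0.32, followed by the periaxin gene Prx (3.90 ± 0.17) and the lectin Clec14a (3.39 ± 0.27). Thrombomodulin (Thbd), claudin 5 (Cldn5) and von Willebrand factor (Vwf) had 2.88, 2.28 and 2.15. The pan-endothelial markers Pecam1 and Tie1 had margins of 0.75 ± 0.23 and 0.95 ± 0.23, with heart the next organ. Among 16 measured genes of vascular tone, 5 were lung-enriched. Slc6a4, the serotonin transporter, ran from 9.08 to 10.04 in lung and was at most 5.92 elsewhere (4.05 ± 0.26). Ace, the enzyme that makes angiotensin II, ran from 10.54 to 11.38 in lung, against 6.51, 8.39, 6.84 and 6.61 in kidney (3.92 ± 0.26). The nitric oxide synthase Nos3 averaged 5.02 in lung and 7.38 in heart (-2.37 ± 0.46).

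Connective tissue genes were mixed. Of 18 measured mesenchymal genes, 5 were lung-enriched, 9 above all 3 organs and the median margin was 0.43. Beside Tbx4 and Foxf1 these were the integrin Itga8, the elastic fibre protein Mfap4 and the hedgehog inhibitor Hhip. Elastin (Eln) was above all 3 organs by 1.53 ± 0.29, and its crosslinking enzymes Lox and Loxl1 by 1.71 ± 0.25 and 1.35 ± 0.23. Fibrillin 1 (Fbn1) averaged 10.2 in lung and 10.3 in heart (-0.14 ± 0.17). Of 11 smooth muscle genes, Actg2 and Cnn1 were lung-enriched (3.36 ± 0.38 and 2.599 ± 0.44). In this list 3 were above all 3 organs, 4 were highest in heart and 1 in kidney, with a median margin of 0.65. Des read 12.25 and 12.18 in heart and 7.80 to 8.92 in lung. The list mean was higher in heart (8.215) than in lung (7.924).

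Many leukocyte genes were lung-enriched. All 13 measured T and natural killer cell genes were above the 3 organs and 10 were lung-enriched, with a median margin of 2.64. Gzma, a granzyme, led with 3.95 ± 0.26, and the T cell receptor subunits Cd3g, Cd3d and Cd3e had 3.38, 3.01 and 2.87. Of 7 B and plasma cell genes 4 were lung-enriched. Jchain, which joins secreted antibodies, had 5.22 ± 0.20, with 9.08 to 10.14 in lung and at most 4.66 elsewhere. Of 9 neutrophil genes 6 were lung-enriched, among them the calprotectin subunits S100a8 and S100a9 (4.35 ± 0.54 and 4.28 ± 0.48). Of 15 monocyte and antigen presentation genes 10 were above all 3 organs, and Tyrobp reached the margin of 2 (2.09), but not with arrays centred on their medians (1.97). Of 12 genes listed for alveolar macrophages 3 were lung-enriched: Ccl6, Cd68 and Cd9. In this list 5 were above all 3 organs, 3 were highest in heart and 1 in kidney, with a median margin of 0.82. Fabp4 read 11.72 and 11.61 in heart and 6.20 to 9.50 in lung. Of the 4 measured red cell genes, 0 passed the limma test as higher in lung: the heme enzyme Alas2 averaged 8.27 in lung and 8.23 in heart, and their list mean was 5.74 to 6.69 in lung, 6.57 to 6.94 in heart and 6.11 to 6.64 in kidney. The part of retained blood in the leukocyte values was not tested.

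Secreted defence and metabolic genes followed. Of 16 host defence genes 8 were lung-enriched and 13 above all 3 organs, with a median of 2.03. Lyz2, lysozyme, was among the brightest lung genes, 13.88 on its lowest lung array, yet its margin was 1.55 ± 0.09 since kidney averaged 12.4. Of 15 genes of xenobiotic metabolism 3 were lung-enriched: the cytochrome P450 genes Cyp2f4 (5.92 ± 0.19), Cyp2a3 (4.25 ± 0.24) and Cyp4b1 (3.11 ± 0.20). The list held 6 genes above all 3 organs, 6 highest in kidney and 1 highest in heart, with a median margin of 0.54. Cyp1a1, the enzyme induced through the aryl hydrocarbon receptor, ran from 4.34 to 8.24 between lungs, and its margin of 1.41 ± 0.57 did not pass the test (adjusted p = 0.101, limma). Of 13 genes of ion and water transport, Aqp5, Slc34a2 and the chloride channel Ano1 were lung-enriched, and the list median was -0.42. The sodium channel subunits split: Scnn1a was above all 3 organs (1.56 ± 0.26), Scnn1g was not separated from kidney (0.30 ± 0.19) and Scnn1b was higher in kidney (-1.26 ± 0.16).

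Many of the largest differences lay outside these lists: 240 lung-enriched genes belonged to none. The defensin gene Defb4 ran from 12.44 to 13.18 in lung and was at most 3.90 elsewhere (9.16 ± 0.17). The chemokine gene Cxcl3 had 8.98 ± 0.20, but its 4 other probe sets gave 6.56, 1.77, 1.30 and 1.03, so the probe sets disagree on the size. Sec14l3, a lipid-binding protein, had 7.90 ± 0.19, and the secreted protein Retnla 7.65 ± 0.39. Pla2g1b, a secreted phospholipase, had 6.72 ± 0.21, the neuropeptide gene Npw 6.63 ± 0.24, the annexin Anxa8 6.20 and the transmembrane collagen Col13a1 5.90. Of the 332 lung-enriched genes with a place in the RefSeq gene table, 51 (15.4%) lay next to another among the measured genes, in 28 adjacent pairs. Of the 13051 other genes placed, 595 (4.56%) lay next to a lung-enriched gene. These pairs included Cd3g, Cd3d and Cd3e, the chemokines Ccl5, Ccl9, Ccl6 and Ccl3, the Bpifa1, Bpifa5 and Bpifb1 group, and Mbip with Nkx2-1.

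Signal of genes of some neighbouring tissues was also seen in lung. Rat pulmonary veins are known to carry a sleeve of atrial-type heart muscle. Myl7, an atrial myosin light chain, ran from 9.57 to 11.09 in lung, against 13.49 and 13.41 in heart and at most 3.71 in brain and kidney. Myh6, the alpha myosin heavy chain, averaged 9.88 in lung and 13.7 in heart. All 11 measured genes of that list were highest in heart. Of 3 measured genes of mesothelium, the cell layer that covers the lung, Upk1b and Msln were lung-enriched (3.47 and 2.09). The third, Wt1, was highest in heart, with a margin of -2.79. Msln fell short of the threshold with arrays centred on their medians (1.91) or quantile normalised (1.94). Without the heart array of rat 84 the margin of Msln was 1.52. Of 10 mast cell genes, the proteases Mcpt1 and Mcpt10 were lung-enriched (2.95 and 2.37) and the list median was 0.73. Of 3 genes listed for thymus, which lies close to the lung, the T cell gene Cd5 was lung-enriched, and Cd8b was above all 3 organs by 0.76. The fat list mean ran from 4.43 to 6.87 over the 8 lungs, the cartilage list from 3.84 to 4.62 and the thyroid list from 4.08 to 4.40. None of these lists was highest in lung. Kidney was highest for fat (6.435, lung 5.311) and thyroid (5.744, lung 4.239), and heart for cartilage (4.527, lung 4.075).

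Few genes were lower in lung than in all 3 organs by at least 2 on the log2 scale. By the mirrored rule 38 probe sets were lung-low (0.199%), for 35 genes. At any deficit 673 probe sets passed the test. Ppp1r1a, a phosphatase inhibitor, ran from 3.55 to 4.05 in lung, near the 25th percentile. It was at least 7.78 on every brain, heart and kidney array, but averaged 3.68 in liver, as low as in lung. A second Ppp1r1a probe set was not lung-low. On the first, the lung mean lay 4.11 below that of heart, the lowest of the 3 organs, on the log2 scale. Rcan2, a calcineurin regulator, lay 3.88 below kidney, the closest of the 3. Further lung-low genes were named after their values were seen. Ldhb, the lactate dehydrogenase subunit of oxidative tissue, averaged 9.78 in lung and 12.8, 13.6 and 12.8 in brain, heart and kidney. Got1 and the coactivators Ppargc1a and Ppargc1b were also lung-low. For Mdh1 the dimmer probe set was lung-low and the brighter was not. In liver, 17 of the 38 were also higher than in lung by at least 2, against 5.58% of all probe sets. The 38 were chosen as low on these same lung arrays, so nothing is read from the difference in share. Ldhb and Ndrg4 went the other way, with lung above liver by 2.52 and 2.56.

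The difference was then tested in rats and arrays outside the rule: 2 lung arrays 3 h after Air and 12 each of brain, heart and kidney 1, 3 and 6 h after Air, from other rats. There, 406 probe sets (2.13%) passed the same rule. Of the 374, 335 (89.6%) were among them, and they were 82.5% of the 406. All 374 had a margin above 0 that passed the test, the lowest being 1.34 and the median 2.81, and all 151 with a margin of at least 3 were called again. Sftpc read 13.79 and 13.80 in those lungs, with a margin of 9.81 (adjusted p = 7.90e-17, limma). Bpifa1 read 12.08 and 11.92, above the highest of the 8 lungs in 1 of the 2. Foxj1 and Rsph1, short of the threshold before, had margins of 2.36 and 2.86 here. Without the lung array of rat 144, 310 of the 374 were called again; the lung group is then 1 array, whose spread is assumed to be that of the other organs. Of the 38 lung-low probe sets, 29 were called again.

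Liver, sampled 6 h after Air from 4 rats, is an organ the rule did not use. Of the 374, 295 (78.9%) were higher in lung than in liver by at least 2, against 8.66% of all probe sets. The 374 were chosen as high on these same lung arrays, so nothing is read from the difference in share. Foxa2 was not among the 295: liver read 10.37, 9.91, 10.00 and 10.07, lung 9.69 to 10.79, and the groups overlapped. Cyp2f4 averaged 10.3 in lung and 10.4 in liver. In 6, liver was higher by at least 2, against 5.58% of all probe sets, with the same limit. These were the complement and clotting genes C3, C4bpa and Fgg, the kininogen gene Kng2l1, the fetuin gene Fetub and the chemokine Ccl9. C3 averaged 10.4 in lung and 13.8 in liver, and the brain array of rat 84 read 9.50 for C3 and 8.24 for Fgg, far above the other brain arrays (at most 6.43 and 4.72). Hepatocyte genes were high on the same array, with a list mean of 9.60 against 5.93 to 7.32 on the other brains, and Alb, Apoa1, Apob and Fga, products of liver, at 13.35, 6.79, 6.56 and 8.07. Alb was also high in brain rat 83 (11.20), heart rat 84 (10.78) and kidney rats 145 and 83 (10.71 and 10.51). It read 3.95 in heart rat 145, and 3.31 and 3.62 in kidney rats 89 and 90. The part of hepatocyte genes in the values of C3 and Fgg was not tested. Without the brain array of rat 84 the margins were 3.59 for C3 and 3.97 for Fgg.

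**Figure D3:**
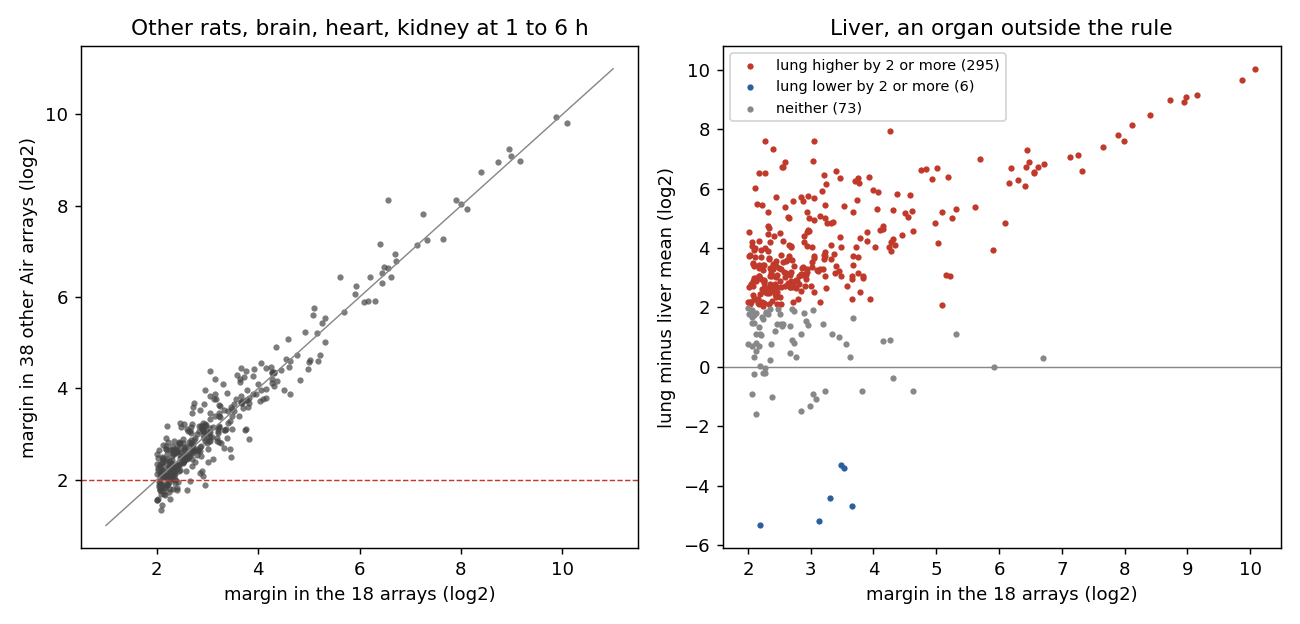
The 374 lung-enriched probe sets with the margin in the 18 arrays on both horizontal axes (log2). Left, their margin in 38 Air arrays of other rats, with the line of equality and the threshold of 2 dashed, all above 0; right, lung mean minus liver mean (log2), in red for the 295 higher in lung by at least 2 and in blue for the 6 lower.

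The median SD over the 8 lungs was 0.36 over lung-enriched probe sets and 0.27 over all, a description only, since the latter include probe sets near the floor and the former were chosen as high in these arrays. The SDs were 0.06 for Sftpc, 0.08 for Sftpb and 0.07 for Ager, bright probe sets in a table whose highest value was 14.41; whether signal near that height is compressed was not tested. Of the lung-enriched probe sets, 7 had an SD above 1: the secretory gene Bpifa1, the type 2 cell gene S100g, the type 1 cell gene Akap5, the endothelial gene Nostrin, the B cell gene Fcrla, and Phex and Rnase3. Bpifa1 read 10.59, 11.10, 9.27 and 11.17 at 24 h and 10.94, 9.28, 8.14 and 11.97 at 1 week, with an SD of 1.28. Nostrin read 10.94 and 10.71 in rats 83 and 145, 9.50 to 9.70 in rats 133, 151 and 178, 8.91 in rat 179, and 8.10 and 8.19 in rats 84 and 185. Genes that are not lung-enriched split these arrays alike: the chromatin gene Atrx read 8.06 and 7.56 in rats 83 and 145 and 3.79 and 3.68 in rats 84 and 185. The signal of the 3′ minus the 5′ probe set of Gapdh, a measure of RNA quality, was 1.29 and 0.97 in the former and 2.14 and 1.17 in the latter; its part in the split was not tested. S100a8 reached 10.65 on its highest and 9.29 on its median lung array, and S100g ran from 8.01 to 11.21. The neutrophil list mean ran from 6.71 to 7.76 and the list of pulmonary vein muscle from 6.38 to 8.23, highest in rat 133. The genes whose signal followed Sftpc most closely over the 8 lungs were Ppip5k1, Lpgat1 and Sae1, with Pearson correlations of 0.947, 0.936 and 0.928. None of the 8 closest was lung-enriched, and Sftpc itself spanned only 13.78 to 13.99.

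**Figure D4:**
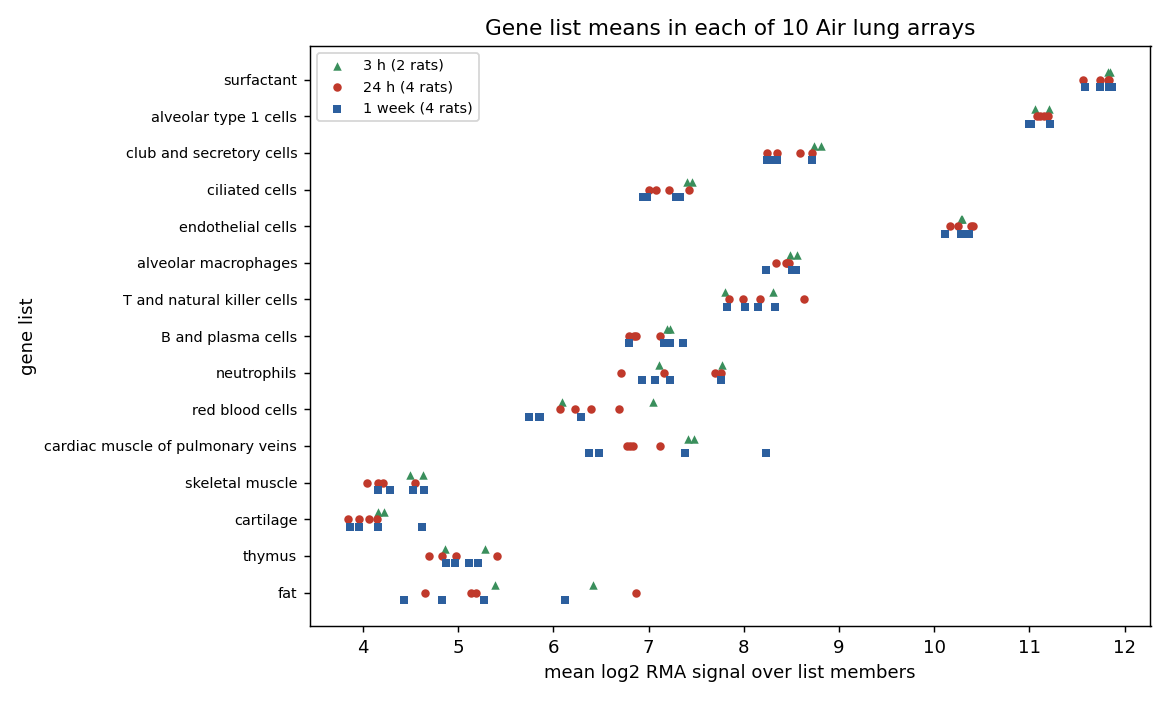
Mean log2 RMA signal over the measured members of 15 gene lists (horizontal axis) in each of 10 Air lung arrays, with triangles for 3 h (2 rats), circles for 24 h (4 rats) and squares for 1 week (4 rats). Surfactant stays between 11.56 and 11.87, while fat and pulmonary vein muscle spread widely.

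Time after the Air session moved no gene past the test. Between 1 week and 24 h, 0 of 19068 probe sets were called by limma with Benjamini-Hochberg adjustment (0%); 551 had an unadjusted p under 0.05, 12 of them lung-enriched. A time difference smaller than the spread among 4 rats was not detectable with this number of arrays.

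The count of lung-enriched genes that changed after PH3 depended on the fit. At 3 h, with 4 PH3 and 2 Air lungs, 48 probe sets were called (0.252%), and 4 of the 374 were among them. Acer2, an alkaline ceramidase, rose by 0.97 ± 0.17 (adjusted p = 0.0169, limma), with 12.64, 12.27, 11.88 and 12.10 after PH3 against 11.22 and 11.27, and a second probe set rose by 1.14. Ooep, known as an oocyte gene, fell by 2.22 ± 0.43 and Fgr, a kinase of myeloid cells, fell by 1.32 ± 0.27. In all 3 genes the PH3 and Air arrays did not overlap. The genes were called on these same arrays and the share over all probe sets was not counted, so nothing is read from this. The count rests on few arrays: it was 4 without the Air rat 144, 30 without the Air rat 150, 20 without the PH3 rat 147 and 23 without the PH3 rat 148. Without rat 144 or 150 a single Air lung is left at 3 h, which is then assumed to vary like the other lung groups. From the 2 groups alone, 30 lung-enriched probe sets were called at 3 h, and with array weights, whose estimation stopped before convergence, 82. Skeletal muscle genes averaged 8.17 in rat 147 and 8.65 in rat 148, against at most 5.44 in the other 2 PH3 lungs at 3 h and 4.63 in the Air lungs; without both rats 6 probe sets were called, none of them lung-enriched. Their part in the result was not tested. The median change of the lung-enriched probe sets was -0.25, against -0.04 over all. At 24 h and at 1 week 0 probe sets were called by limma (0%), with 306 and 440 at an unadjusted p under 0.05, 5 and 15 of them lung-enriched. With array weights 31 lung-enriched probe sets were called at 1 week. Sftpc changed by 0.10 ± 0.07 at 3 h, which did not pass the test.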

How the data were processed

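RMA, Partek and Affymetrix Expression Console are listed as tools, without versions or order, per the submitters' processing notes. The values were deposited by the authors as log2 RMA signal per probe set, from 2.6 to 14.41, and the direction and scale of a difference is therefore log2. Probe brightness summarised this way is compressed at the low end. Here limma 3.58.1 (R 4.3.3) fitted 1 mean per organ with a mean-variance trend over all 19068 probe sets with 1 symbol; 573 probe sets with several symbols and 11498 with none were left out. The p of a call is the largest of 3 two-sided p-values, Benjamini-Hochberg adjusted. Values after ± are SE. The fit was tested on simulated data. Lung contrasts used all 21 lung arrays in 6 groups.

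Named genes were the 25 with the largest margin, the 6 largest deficits, up to 6 largest and 3 smallest margins of each gene list, a panel, genes called after PH3, 10 with the largest liver excess, 8 in no list and 8 most like Sftpc; the genes beside the threshold, some further list members, lung-low genes and gene neighbours were named after their values were seen. The members and lists were chosen with earlier results of these data known. Rats shared between organs were checked as a pairing: over 13 same-rat pairs the correlation of deviations ran from -0.61 to 0.68 (median 0.04, 4 over 0.1), so rat was not a block in the fit. p-values measure the spread between these rats.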

Additional observations from a re-analysis of the deposited data

Results flagged for a closer look

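Of 93 combinations of 31 leading genes with lung, brain or kidney, 1 held an array far from the rest. Chance gives about 1 in 20, a larger share, so nothing is read from this flag. The lung array of rat 133, at 1 week, read 12.44 for Defb4, while the other 7 lungs read 12.96 to 13.18. Rat 133 also had the highest list mean for pulmonary vein muscle, 8.23.

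Probe sets that no gene symbol names were outside the comparison. Among 11498 of them, 106 passed the rule for lung enrichment, as did 12 with several symbols. The highest, 1382833_PM_at, averaged 11.99 ± 0.22 (SD, n = 8) in lung, with 4.05 the highest array elsewhere (margin 8.01). The next, 1391624_PM_at, had a margin of 7.41.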

How the results depend on the processing

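The lung-enriched and lung-low counts stayed within 1.5 times under both scalings, the trend, array weights, other times of brain, heart and kidney, 1 probe set per gene and the filter on low signal. Leaving out each array in turn gave 360 to 387 and 36 to 40. With rat as a replicate block, 380 and 37 probe sets were called and 335 of the lung-enriched ones on the other rats, so the pairing changed no count by over 1.5 times. Chosen after seeing the data, leaving out lung rats 84 and 185 (lowest array weights) gave 370, lung rats 83 and 185 (lowest mean correlation with the other lungs) 372, and brain rats 89 and 145 376. The threshold mattered most: a margin of at least 1 gave 1105 lung-enriched and 203 lung-low, at least 3 gave 151 and 13, any margin 1968 and 673, and the lowest lung array against the highest other array 173 and 14. On the other rats, leaving out each lung array gave 310 to 335, and against liver 294 to 297. The PH3 count at 3 h was 581 from its 2 groups alone, 2250 with array weights, whose estimation stopped before convergence, 30 with arrays centred on their medians, 6 without rats 147 and 148 and 4 to 71 leaving out each array. At 1 week it was 1380 with array weights and 0 to 13 leaving out each array, the 13 without Air rat 133. Leaving out each array gave 0 to 0 for 24 h and for 1 week against 24 h in Air. The cause was not tested. The margin of Gpihbp1 turned to -0.38 with all Air times of the other organs. With 2 heart arrays and 2 Air lungs at 3 h, precision is lowest there.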
